A study of Drosophila melanogaster with 6 samples.

Results

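Blood cell genes were followed in the proboscis of male Drosophila melanogaster that carried the mutant allele poxn70. The 8 genes were PPO1, PPO2, Hml, Sr-CI, Sr-CII, Sr-CIII, Pxn and srp, chosen by symbol from the array annotation, out of 11982 genes that had a probe set of their own. Where a gene had several such probe sets, the brightest over the 6 arrays was used. Poxn (Pox neuro) is a paired-box transcription factor without which taste bristles form as touch bristles. Of the 6 arrays, 3 held proboscis RNA from flies with poxn70 on both chromosomes (homozygous) and 3 from flies with poxn70 on 1 chromosome (heterozygous), so every fly carried the allele and flies without it were not analysed here. Flies were 8 to 18 days past eclosion, and between 164 and 280 proboscises were pooled for an array, which makes each array a pool of animals. Values are on the log2 scale after GCRMA, a method that corrects each probe for background and gives 1 value per probe set, and values under 3 were treated as background.

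Fly blood cells, the hemocytes, float in the open circulation or rest on tissues. Plasmatocytes, the macrophage-like majority, engulf microbes and debris and secrete clotting and basement membrane proteins. Crystal cells store prophenoloxidases, the enzyme precursors that blacken clots and wounds with melanin. Both classes arise under the GATA transcription factor Serpent (srp). They can come along with a dissected organ, whose bulk RNA then holds theirs beside that of epidermis, muscle, fat body and neurons.

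All 6 of the blood cell genes that were read above background had higher means in homozygotes, and none of the 8 passed the test over all probe sets. PPO1, Hml and Sr-CI stood apart between the genotypes without overlap, at 2.24-fold, 1.81-fold and 2.21-fold. PPO2 averaged 1.91-fold higher, srp 1.36-fold and Pxn 1.14-fold, each with overlapping groups. Sr-CII and Sr-CIII lay at background on all 6 arrays. Over all 18769 probe sets, limma (Benjamini-Hochberg adjusted p under 0.05) called 70, or 0.373%, of which 11 (0.0586%) were higher and 59 (0.314%) lower. At an unadjusted p under 0.05, 3 of the 8 genes were higher, beside 4.33% of all probe sets, and 0 were lower, beside 2.9%. Of probe sets above the limit, 12.6% had all 3 homozygous values above all 3 heterozygous ones, against 3 of the 6 blood cell genes above it. The share with all 3 below was 8.54%, against 0 of the 6. The median difference (homozygous minus heterozygous) of those 6 genes was 0.90, and that of all 7705 genes above the limit was 0.04, with 54.5% of these higher in homozygotes. In bulk RNA, more blood cells in the tissue and more of these transcripts per cell cannot be told apart.

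**Figure D1:**
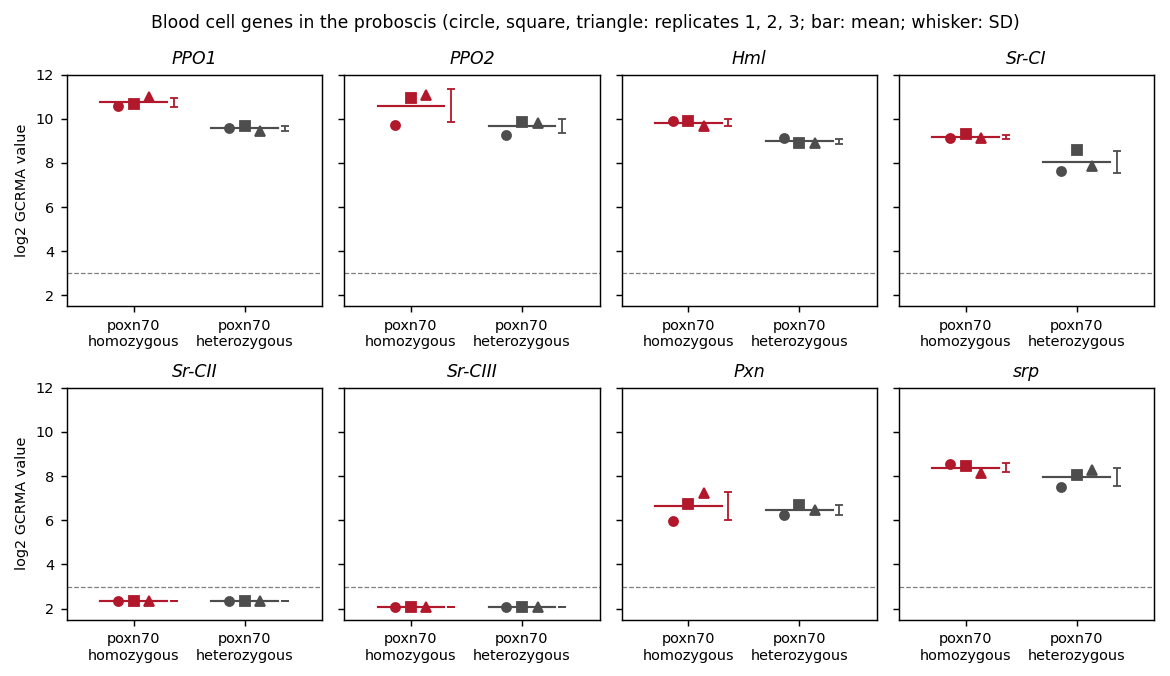
Log2 GCRMA values of the 8 blood cell genes on each array, with homozygotes left of heterozygotes, horizontal bars for means, whiskers for the SD over 3 arrays and a dashed line at the background limit of 3. PPO1, Hml and Sr-CI show no overlap between genotypes, whereas Sr-CII and Sr-CIII lie under the limit throughout.

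The arrays and labels were checked before the genes were read. Poxn itself was at background, at 2.46 ± 0.16 in homozygotes and 2.34 ± 0.04 in heterozygotes (SD, n = 3 each), so its probe set does not check the genotype labels. All 8 taste neuron markers read lower in homozygotes, whereas 54.5% of all genes above the limit were higher. Of the 8, limma called 4, beside 0.314% of all probe sets called lower. The homeotic gene pb, which specifies the proboscis, was at 6.89 ± 0.72 in homozygotes and 7.04 ± 0.15 in heterozygotes. Homozygous replicate 1 correlated less with the other arrays (mean 0.971) than the other 5 did (0.984 to 0.987). The labels number replicates 1 to 3 in both genotypes. With the replicate number as a block, limma called 0 of all probe sets (smallest adjusted p 0.131) and 0 of the 8 blood cell genes.

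The crystal cell genes are PPO1 and PPO2, prophenoloxidases that are cleaved to the active melanin-forming enzyme. PPO1 is the gene altered in the classical mutant Black cells. PPO1 read 10.58, 10.66 and 10.97 in homozygous replicates 1, 2 and 3, against 9.59, 9.67 and 9.44 in heterozygous ones. Its lowest homozygous value lay 0.91 above the highest heterozygous one. The difference was 1.17 (SE 0.14, 95% interval 0.81 to 1.52), with a limma adjusted p of 0.0614. A smaller p was found for 95 of all probe sets, and 145 of the 9381 above the limit had a larger increase. PPO1 was higher in homozygotes at all 3 replicate numbers, by 0.99, 0.98 and 1.52, as follows from groups that do not overlap.

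PPO2 read 9.72, 10.96 and 11.09 in homozygous replicates 1, 2 and 3, against 9.28, 9.87 and 9.81 in heterozygous ones. Replicate 1 was the lowest of each genotype, and the homozygous replicate 1 lay among the heterozygous values. The mean difference was 0.94 (SE 0.42, 95% interval -0.13 to 1.999, limma adjusted p = 0.611), and the spread was wide, at 10.59 ± 0.75 in homozygotes and 9.65 ± 0.32 in heterozygotes (SD, n = 3 each). Without homozygous replicate 1 the difference was 1.37 (adjusted p = 0.135), and without homozygous replicate 3 it was 0.69 (adjusted p = 0.727). PPO2 was higher in homozygotes at each replicate number, by 0.44, 1.09 and 1.28. Within homozygotes PPO2 ranged over 1.36 and PPO1 over 0.38, and within heterozygotes PPO2 ranged over 0.59 and PPO1 over 0.23.

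Among the plasmatocyte genes, Hml encodes Hemolectin, a large clotting protein that is a standard plasmatocyte marker. Hml read 9.92, 9.91 and 9.65 in homozygotes, against 9.11, 8.91 and 8.89 in heterozygotes. The groups were 0.54 apart at their nearest values, and the spread within each was narrow. The difference was 0.86 (SE 0.13, 95% interval 0.54 to 1.17, limma adjusted p = 0.111). Hml was higher in homozygotes at each replicate number, by 0.81, 1.002 and 0.76, which again follows from groups without overlap.

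Sr-CI encodes a class C scavenger receptor, a surface protein with which phagocytes bind bacteria and modified lipoproteins. Sr-CI read 9.11, 9.28 and 9.13 in homozygotes, against 7.64, 8.58 and 7.87 in heterozygotes. The homozygous values lay close together (SD 0.10), while heterozygous replicate 2 stood above the other heterozygous arrays (SD 0.49, n = 3 each). The difference was 1.14 (SE 0.27, 95% interval 0.47 to 1.82, limma adjusted p = 0.343). Its paralogues Sr-CII and Sr-CIII gave no signal, with all values between 2.33 and 2.35 for Sr-CII and between 2.076 and 2.083 for Sr-CIII, and a fold is not given for either. The further paralogue Sr-CIV was also under the limit, so Sr-CI was the 1 member of the class C family read above background. Sr-CI and Sr-CIII are neighbours on chromosome arm 2L.

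Pxn encodes Peroxidasin, a secreted peroxidase that crosslinks collagen IV in basement membranes. Its brighter probe set read 5.97, 6.74 and 7.25 in homozygotes, against 6.22, 6.70 and 6.47 in heterozygotes. The homozygous arrays spanned the whole heterozygous range. The difference was 0.19 (SE 0.38, 95% interval -0.76 to 1.15, limma adjusted p = 0.772), and it was -0.11 without homozygous replicate 3. A second Pxn probe set was at background on all 6 arrays (2.25 to 2.26), so the gene's value rests on 1 of 2 probe sets.

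srp encodes the GATA factor that blood cell precursors need, and it is also used by the fat body. srp read 8.56, 8.47 and 8.15 in homozygotes, against 7.51, 8.07 and 8.27 in heterozygotes. The groups overlapped, with heterozygous replicate 1 the lowest of all 6 arrays. The difference was 0.44 (SE 0.24, 95% interval -0.18 to 1.06, limma adjusted p = 0.611). By replicate number it was 1.04, 0.39 and -0.12, so the sign was not shared, and without heterozygous replicate 1 the difference was 0.22.

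**Figure D2:**
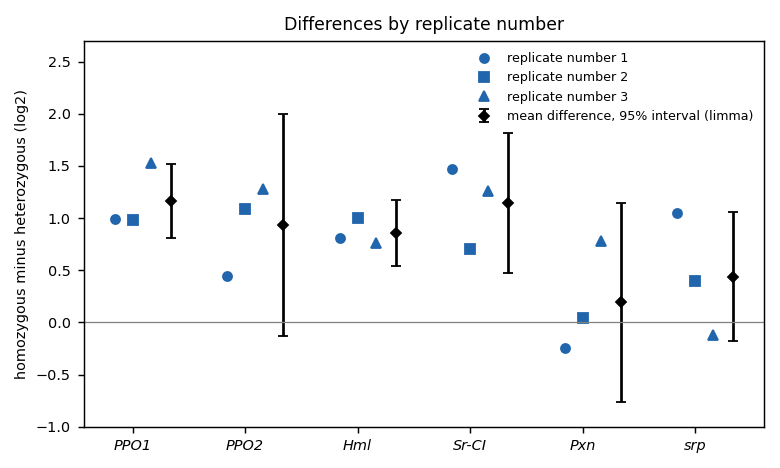
Homozygous minus heterozygous log2 differences of the 6 blood cell genes above background, by replicate number, with the limma mean difference and its 95% interval as black diamonds. PPO1, PPO2, Hml and Sr-CI are above 0 at each number, whereas Pxn and srp are each below 0 at 1 of them. For PPO1, Hml and Sr-CI the shared sign follows from groups that do not overlap.

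The crystal cell genes were then set beside the plasmatocyte genes. The mean of PPO1 and PPO2 was 10.15, 10.81 and 11.03 in homozygotes, against 9.44, 9.77 and 9.63 in heterozygotes, a difference of 1.05. The mean of the 5 plasmatocyte genes was 5.88, 6.07 and 6.09 in homozygotes, against 5.48, 5.72 and 5.53 in heterozygotes, a difference of 0.44. Sr-CII and Sr-CIII sit at background and cannot show a change in that mean. Without them the plasmatocyte difference was 0.73, and the gap between the crystal cell and the plasmatocyte differences was 0.32 in place of 0.61, with a within-genotype SD of 0.25 for the wider set. Ordered by difference, the genes ran PPO1 (1.17), Sr-CI (1.14), PPO2 (0.94), Hml (0.86), srp (0.44) and Pxn (0.19), so genes of both cell classes lay at the upper end. The 95% intervals of PPO1, PPO2, Hml and Sr-CI all overlapped. The members were chosen with earlier results known, and no p is given for these means.

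Arrays of 1 genotype did not carry all blood cell genes in step. Homozygous replicate 1 was the lowest homozygous array for PPO1, PPO2, Sr-CI and Pxn, but the highest for Hml and srp. The next homozygous array was close for PPO1 (10.58 and 10.66), Sr-CI (9.11 and 9.13), Hml (9.92 and 9.91) and srp (8.56 and 8.47). It was further off for PPO2 (9.72 and 10.96) and Pxn (5.97 and 6.74). Heterozygous replicate 1 was the lowest heterozygous array for PPO2, Sr-CI, Pxn and srp, but the highest for Hml. Without homozygous replicate 1, the array that correlated least with the others, the differences were 1.24 for PPO1, 0.81 for Hml and 1.18 for Sr-CI. Immune-induced peptides, the secreted antimicrobials of fat body and blood cells, were higher on the same arrays. Of 17 listed, 7 had a probe set of their own. All 7 had homozygous values above the heterozygous ones (12.6% of probe sets above the limit did). Their median difference was 1.595, and limma called 0 (6 higher at an unadjusted p under 0.05, beside 4.33% of all probe sets). Their mean level by array ran from 9.49 to 11.22 in homozygotes and from 8.32 to 9.11 in heterozygotes. Of the homozygotes it was lowest in replicate 3, where PPO1, PPO2 and Pxn were highest and Hml and srp lowest. The part of the peptides in the blood cell values was not tested.

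**Figure D3:**
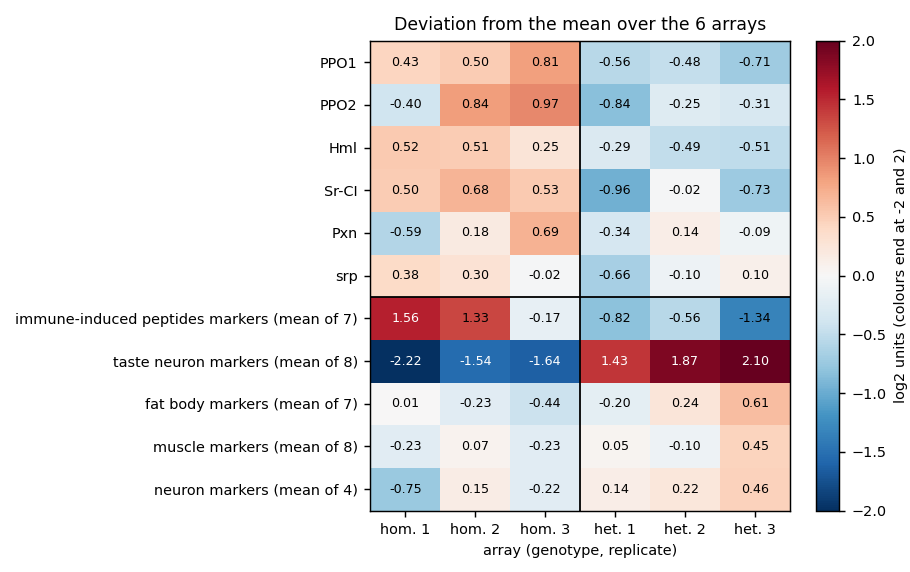
Deviation of each array from the mean over all 6 arrays, in log2 units, for the 6 blood cell genes above background and for the mean of marker lists of other cell types or responses. PPO1, Hml and Sr-CI are above 0 on all homozygous arrays and below 0 on all heterozygous ones, and the taste neuron markers run the opposite way.

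Other cell types were read through their markers for comparison. Of 11 fat body markers with a probe set of their own 7 were above the limit. Of the 7, 4 had higher and 3 lower homozygous means, at a median difference of 0.04. Their mean level by array was 6.93 to 7.37 in homozygotes and 7.17 to 7.98 in heterozygotes, and Fbp1, Fbp2, Lsp2 and Yp2 were at background in both. The median hides tobi, lower without overlap, at 4.98 ± 1.48 in homozygotes and 8.44 ± 0.28 in heterozygotes (SD, n = 3 each). It also hides fit, higher without overlap but close to the limit, at 3.07 ± 0.71 and 2.26 ± 0.02. The limma adjusted p was 0.308 for tobi and 0.611 for fit. All 8 muscle markers with a probe set of their own, of 12 listed, passed the limit, at a median difference of 0.11. Their array means were 11.19 to 11.49 in homozygotes and 11.32 to 11.87 in heterozygotes. Of 8 neuron markers listed 6 had a probe set of their own, and 4 of these passed the limit. The 4 differed by a median of -0.53, with array means of 7.96 to 8.86 in homozygotes and 8.85 to 9.17 in heterozygotes. Taste neuron markers had a median difference of -3.58, with array means of 3.45 to 4.13 in homozygotes and 7.10 to 7.77 in heterozygotes. Values are relative within an array, and the part of lost taste neuron RNA in the blood cell differences was not tested.

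Further blood cell genes were read from lists of related genes. Of 14 other plasmatocyte genes 10 were above the limit, 8 with higher and 2 with lower homozygous means. Among all genes above the limit 54.5% were higher. Of the 14, limma called 0 (0 at an unadjusted p under 0.05 among those above the limit). The median difference of the 10 was 0.23. The phagocytic receptor eater, of the Nimrod family, was at 8.42 ± 0.39 in homozygotes and 7.98 ± 0.25 in heterozygotes (SD, n = 3 each). NimC1, another Nimrod receptor, was at 8.996 ± 0.09 in homozygotes and 8.77 ± 0.44 in heterozygotes. The collagen IV gene vkg, secreted by plasmatocytes and fat body, was at 9.36 ± 0.19 in homozygotes and 8.96 ± 0.31 in heterozygotes. The scavenger receptor crq, of the CD36 family, was at 11.43 ± 0.23 in homozygotes and 11.74 ± 0.16 in heterozygotes, with overlapping groups (limma adjusted p = 0.611 for vkg and for crq). He, a pan-hemocyte marker of the larva, was at background in both genotypes, as were gcm, gcm2 and Pvf3.

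lz and peb, regulators of crystal cells, were read next. lz, the Runt-domain factor that specifies crystal cells, had 2 of 3 homozygous values and all 3 heterozygous values under the limit. Its value in homozygous replicate 1 was 3.42, just above the limit. peb, a zinc finger factor of maturing crystal cells that epithelia also express, was at 6.22 ± 0.22 in homozygotes and 6.80 ± 0.38 in heterozygotes (SD, n = 3 each), with all homozygous values below all heterozygous ones (adjusted p = 0.611 by limma). PPO3, the prophenoloxidase of lamellocytes, was at background on all 6 arrays. Of the 6 lamellocyte genes, PPO3 included, 4 were above the limit, all with higher homozygous means, beside 54.5% of all genes above it. The groups overlapped for each of the 4, at a median difference of 0.19, and limma called 0 (0 at an unadjusted p under 0.05). atilla, a surface protein of lamellocytes, was at 14.54 ± 0.15 in homozygotes and 14.36 ± 0.06 in heterozygotes. Which cells gave this strong atilla signal was not tested. The filamin gene cher was at 10.96 ± 0.35 in homozygotes and 10.50 ± 0.13 in heterozygotes, and the kinase gene msn was at 8.92 ± 0.16 in homozygotes and 8.73 ± 0.20 in heterozygotes. ItgaPS4, an integrin subunit of lamellocytes, was under the limit throughout, so 2 of the 6 genes gave no signal.

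Of the 16 crystal cell and melanization genes with a probe set of their own, 14 were above the limit. Of the 14, 6 had higher and 8 lower homozygous means. limma called 0. At an unadjusted p under 0.05 (limma), 3 were higher, namely PPO1, Pu and yellow-f, and 0 lower, beside 4.33% and 2.9% of all probe sets. Pu, the GTP cyclohydrolase that supplies the cofactor of tyrosine hydroxylase, read 13.29, 13.66 and 13.22 in homozygotes, against 12.75, 12.66 and 12.86 in heterozygotes. It did not overlap between genotypes (difference 0.64, limma adjusted p = 0.373). yellow-f, a dopachrome conversion enzyme of melanin synthesis, read 6.07, 5.74 and 5.35 in homozygotes, against 4.07, 5.13 and 4.98 in heterozygotes (difference 0.99, limma adjusted p = 0.611). The clip-domain serine proteases Hayan and Sp7, which act upstream of prophenoloxidase cleavage, were lower in homozygous replicate 1 than on any other array, at 7.17 and 9.18. On the remaining arrays Hayan ran from 9.05 to 9.36 and Sp7 from 11.41 to 12.27. Spn27A, a serpin that restrains the cascade, was likewise at 9.25 in homozygous replicate 1 and between 11.06 and 12.06 elsewhere. The median difference over the 14 genes was -0.11.

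Clotting genes had differences of both signs. Of 9 with a probe set of their own, all above the limit, 5 had higher and 4 lower homozygous means. The median difference of the 9 was 0.09, and limma called 0. At an unadjusted p under 0.05 (limma), 1 was higher, Hml, and 1 lower, fon, beside 4.33% and 2.9% of all probe sets. fon encodes Fondue, a protein of the hemolymph clot. fon read 12.33, 12.64 and 12.75 in homozygotes, against 13.52, 13.78 and 13.79 in heterozygotes. The groups did not overlap, and the difference was -1.12 (95% interval -1.52 to -0.72, limma adjusted p = 0.0984), opposite in sign to Hml. Tg, the transglutaminase of the clot, was at 10.76 ± 0.43 in homozygotes and 10.10 ± 0.37 in heterozygotes (SD, n = 3 each). Idgf2, a chitinase-like protein of hemolymph, was at 12.88 ± 0.08 in homozygotes and 12.48 ± 0.33 in heterozygotes, each with an adjusted p of 0.611 (limma).

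Basement membrane genes, which plasmatocytes and other tissues express, had mostly higher homozygous means. Of 12, all above the limit, 10 were higher and 2 lower, beside 54.5% higher among all genes above the limit. Their median difference was 0.53. The groups did not overlap for 5, all higher, beside 12.6% of probe sets above the limit. limma called 0 (3 higher at an unadjusted p under 0.05, beside 4.33% of all probe sets). LanB1, a laminin subunit, read 8.83, 8.997 and 8.60 in homozygotes, against 7.74, 8.06 and 7.98 in heterozygotes (difference 0.88, limma adjusted p = 0.192). LanA, another laminin subunit, was at 9.64 ± 0.39 in homozygotes and 8.88 ± 0.15 in heterozygotes (SD, n = 3 each). The perlecan gene trol was at 8.79 ± 0.29 in homozygotes and 8.11 ± 0.29 in heterozygotes. Ndg, the nidogen gene, was at 5.69 ± 0.50 in homozygotes and 4.82 ± 0.28 in heterozygotes. Pxn, whose product acts in the same matrix, was not among the 5 that did not overlap.

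Among the 5 GATA family genes, 4 of them above the limit, grn was the 1 gene called, beside 0.314% of all probe sets called lower. grn, a factor used in the development of several epithelial and neural tissues, was at 6.07 ± 0.47 in homozygotes and 10.42 ± 0.31 in heterozygotes (SD, n = 3 each), 20.3-fold lower, with a limma adjusted p of 0.0176 that became 0.201 with the replicate block. pnr and GATAd, other GATA factors, had overlapping groups, and GATAe, the neighbour of srp on chromosome arm 3R, had both means under the limit. Of 6 blood cell transcription factors 3 were above the limit, 1 with a higher and 2 with lower homozygous means. limma called 0 (1 lower at an unadjusted p under 0.05, beside 2.9% of all probe sets). That 1 was kn (Collier), a factor of lamellocyte formation and of the larval lymph gland that neurons also use, at 3.79 ± 0.97 in homozygotes and 7.11 ± 0.14 in heterozygotes (limma adjusted p = 0.141). ush, the Friend-of-GATA partner of srp, was at 7.73 ± 0.29 in homozygotes and 7.75 ± 0.31 in heterozygotes. The intervals of ush and of srp itself both include 0.

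**Figure D4:**
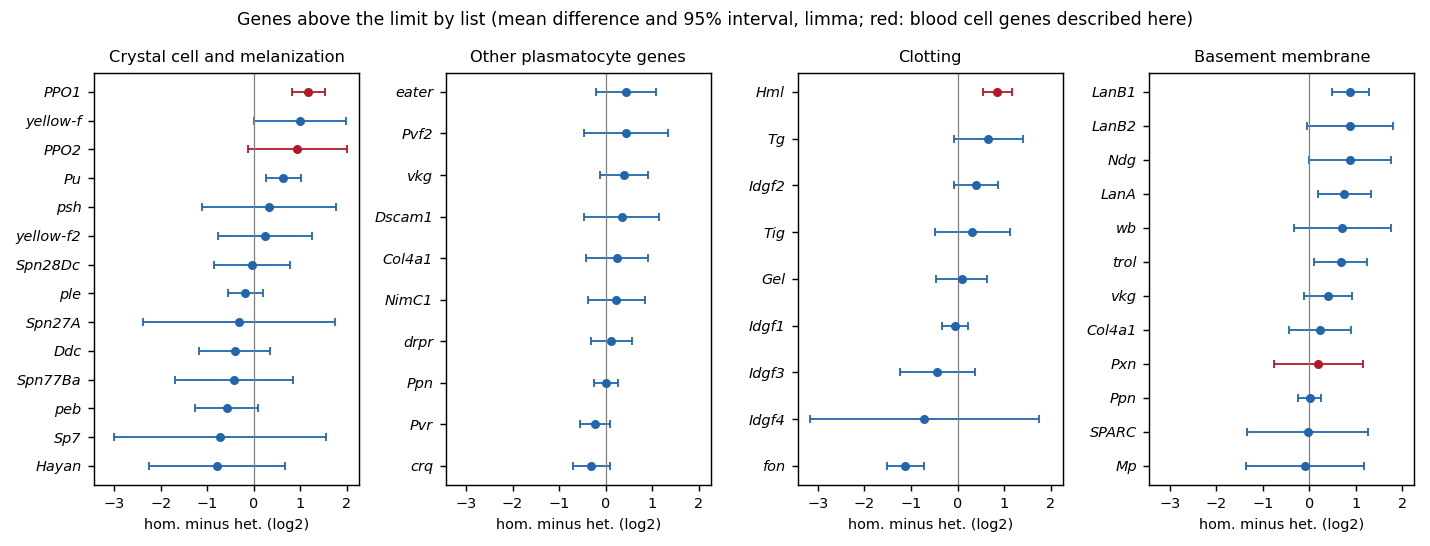
Mean log2 differences, homozygous minus heterozygous, with 95% limma intervals for the genes above background in 4 lists, with the blood cell genes in red. PPO1 and Hml head their lists, fon lies at the foot of the clotting list, and the melanization proteases have wide intervals around 0.

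The genes most like PPO1, Hml and Sr-CI over the 6 arrays were found by the root mean square difference between profiles centred on their means, among 6665 other genes with a mean of at least 5. For PPO1 the nearest were dmGlut (0.11), CG11668 (0.12) and Dera (0.12). For Hml they were EndoU (0.09), glob1 (0.12) and Cdk4 (0.12). For Sr-CI they were TwdlT (0.11), CG13117 (0.15) and CG8303 (0.15). None of these 9 passed limma's adjusted threshold, the smallest adjusted p being 0.0658 for EndoU. The blood cell genes were not each other's nearest. Hml ranked 40, Sr-CI 47 and PPO2 423 by likeness to PPO1, at 0.27, 0.29 and 0.43, while srp ranked 1134 and Pxn 2024. By likeness to Hml, PPO1 ranked 236, srp 1028, Sr-CI 1113, PPO2 3893 and Pxn 4272. By likeness to Sr-CI, PPO1 ranked 25, Hml 114, srp 405, PPO2 422 and Pxn 2095.

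PPO1 and Hml passed or missed the threshold according to the setting, with differences that hardly moved. The adjusted p of PPO1 (limma) was 0.0315 when the dimmer 50% of probe sets were dropped, 0.0412 with 1 value per gene, 0.0315 with a random replicate block and 0.00995 with array weights, but 0.334 with the fixed replicate block and between 0.0723 and 0.294 without any 1 array. That of Hml was 0.0310 with the random block and 0.0104 with array weights, but 0.317 with the fixed block and between 0.142 and 0.493 without any 1 array. The difference of PPO1 stayed between 1.05 and 1.25 over 16 alternatives and that of Hml between 0.81 and 0.94.

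**Figure D5:**
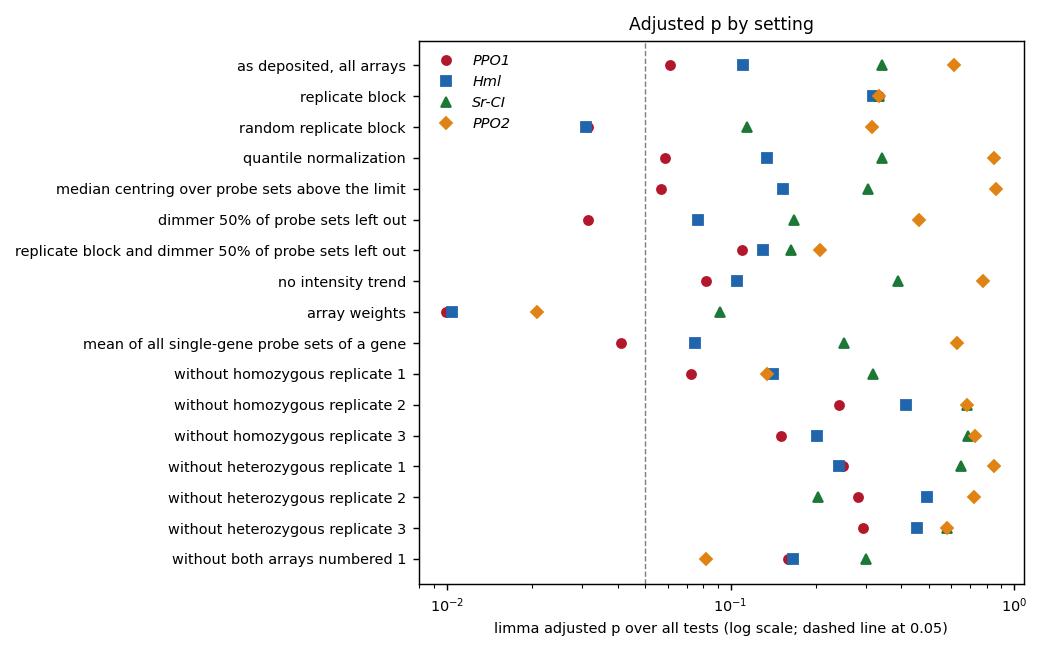
Adjusted p (limma, log axis) of PPO1, Hml, Sr-CI and PPO2 as deposited and under 16 alternatives, with a dashed line at 0.05. PPO1 lies left of the line in 4 of the 16, Hml in 2, PPO2 in 1 and Sr-CI in 0.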

How the data were processed

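The deposited table holds log2 values that the authors made with GCRMA, per the submitters' processing notes, from single-colour arrays of cRNA amplified in 2 rounds, per the labels' protocols. The GCRMA version and genome build are not given in the sources used here. GCRMA compresses probe sets without signal into a narrow low band, so tiny differences there carry little meaning, and 48.2% of probe sets had all 6 values under 3. Of 18952 probe sets 183 array controls were left out. Genes were named from the platform annotation, with symbols updated through a RefSeq table (Release 6 plus ISO1 MT) that matched 13544 of 13647 single-gene probe sets, and which gave arms and neighbours only. limma 3.58.1 in R 4.3.3 (lmFit, eBayes with an intensity trend) was fitted to 18769 probe sets, tested on simulated data beforehand, with Benjamini-Hochberg adjustment at 0.05.

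Same-numbered arrays deviated together (correlations 0.372, 0.288 and 0.142), which the labels do not explain. On this ground the numbers were treated as possible pairs. The main fit, with its p and intervals, left the numbers out, and the block was an alternative. Arrays of different number also deviated together, at 0.275 for homozygous 3 with heterozygous 2, above its own number, and 0.129 for homozygous 2 with heterozygous 3. Homozygous 1 with heterozygous 2 and 3 gave -0.349 and -0.169, and heterozygous 1 with homozygous 2 and 3 gave -0.299 and -0.301. The data thus set number 1 apart and do not separate numbers 2 and 3, so the pairing is uncertain. The labels call the arrays biological replicates. The number of arrays limits precision. The members and lists were chosen with earlier results of these data known. Named were all 8 members, then in each list the called genes or else up to 4 genes of smallest p, and the 3 genes most like PPO1, Hml and Sr-CI. eater, NimC1, He, gcm, peb, PPO3, Hayan, Sp7, Spn27A, ush, pnr, GATAd, GATAe, cysu, tobi and fit were added after their values were seen. Detection calls, scanner files and sequences of these genes were not used here.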

Additional observations from a re-analysis of the deposited data

How the results depend on the processing

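Of 124 recomputed differences of the 8 blood cell genes, 117 stayed on their side of the threshold and 7 passed it (4 for PPO1, 2 for Hml, 1 for PPO2). Only 5 were below 0, namely 1 for Pxn and 2 each for Sr-CII and Sr-CIII at background. The replicate block, with an uncertain pairing by number, called 0 of all probe sets against 70, and 0 of the 8 genes, as without it. The count of calls over all probe sets was 167 with a random replicate block, 106 with median centring, 157 after the dimmer 50% of probe sets were dropped and 9 without both arrays numbered 1. It was 845 with array weights, estimated gene by gene since the usual estimate did not converge, with a weight of 0.11 for homozygous replicate 1 and 5.65 for heterozygous replicate 2. Leaving out 1 array gave 6 to 66. The count of blood cell genes called, 0 as deposited, was 2 with the random block (PPO1 and Hml), 1 with the dimmer 50% left out (PPO1), 1 with the mean of all probe sets of a gene (PPO1) and 3 with array weights (PPO1, PPO2 and Hml), and 0 to 0 without any 1 array. The fits with the dimmer 50% left out or 1 value per gene tested fewer features and refitted the intensity trend. In both, the difference of PPO1 was the same 1.17 while its adjusted p moved. For none of the settings was the cause of the move tested. The median difference of the 6 genes above the limit ran from 0.78 to 0.99 over 11 alternatives. The gap between crystal cell and plasmatocyte differences ran from 0.47 to 0.80 without any 1 array and was 0.32 with the members at background left out, an alternative chosen after seeing the data, as was the block combined with the dimmer 50% left out (92 calls, 0 of them blood cell genes). Quantile normalization gave 64 calls and no intensity trend 48. Signal over background is known only from the limit of 3.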

Other observations

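The nearest protein-coding neighbours of the blood cell genes were read as well. Both neighbours of PPO1, CG30110 and CG14492, were at background. Of the neighbours of PPO2, Ance-4 was at 7.95 ± 0.27 in homozygotes and 8.92 ± 0.38 in heterozygotes (SD, n = 3 each), without overlap and opposite in sign to PPO2 (limma adjusted p = 0.421). CG13743 was at 5.93 ± 0.83 in homozygotes and 5.53 ± 0.56 in heterozygotes. Beside Hml, Tsp68C was at background and CG8745 was at 8.66 ± 0.62 in homozygotes and 9.05 ± 0.01 in heterozygotes. Beside Pxn, CG16986 was at 10.40 ± 0.57 in homozygotes and 9.51 ± 0.45 in heterozygotes, without overlap (limma adjusted p = 0.611). PPO1, PPO2 and Sr-CII lie on chromosome arm 2R, Hml and Pxn on 3L, Sr-CI and Sr-CIII on 2L and srp on 3R.

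Of 6 peroxidase family genes 3 were above the limit, and Pxd, Pxt and cysu were at background. Duox, an enzyme that makes reactive oxygen species at epithelia, read 6.51, 6.23 and 5.99 in homozygotes, against 5.30, 5.45 and 4.75 in heterozygotes, without overlap (limma adjusted p = 0.466). Irc, a secreted catalase-like peroxidase, was at 12.12 ± 0.38 in homozygotes and 12.50 ± 0.15 in heterozygotes (SD, n = 3 each).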
